A study of Homo sapiens with 3 samples.

Results

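SR proteins and hnRNPs are the main families of RNA-binding proteins that set which exons of a pre-mRNA are kept. Here their genes were followed in PC3 cells, a castration-resistant, androgen-independent prostate cancer cell line, after knockdown of the deubiquitinase USP16. The members were the genes whose symbol is SRSF with a number or begins with HNRNP, without processed copies and antisense names, together with TRA2A, TRA2B, PTBP1, PTBP2, PTBP3, RBM39, SRRM1 and SRRM2. The rule gave 46 genes of the 59719 gene names in the table, and it used no expression value. They comprised 12 SR genes, 29 hnRNP genes, among which PTBP1 to PTBP3 were counted because PTBP1 is hnRNP I, and 5 SR-related genes.

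RNA-seq covered 3 libraries, 1 each of PC3 cells carrying the vector control hairpin (shCON), shUSP16#1 or shUSP16#2. The paper describes hairpins cloned into the pLKO.1 vector and stable PC3 transformants selected with puromycin. It does not say so for the sequenced cells in particular, and the deposited values label the control RFP. Whether the control cells shared the vector and the drug is therefore not stated. Expression was deposited as TPM, which corrects for the length of the transcript and brings every library to one common total. The sequencing depth is therefore unknown and no counting interval can be given. With 1 library per condition there was no replicate check and no test, so every difference below is a description of these libraries, and both comparisons share the shCON library. USP16 was at 19.9 TPM in shCON against 3.5 TPM with shUSP16#1 and 1.08 TPM with shUSP16#2. The epithelial keratins KRT8 and KRT18 were between 622 and 947 TPM in every library, KLK3 was listed at 0, and the other epithelial markers KRT19 and EPCAM were between 136 and 958 TPM. Markers of leukocytes, endothelium and stroma (PTPRC, PECAM1, PDGFRB) did not exceed 1.28 TPM, and COL1A1 was at 4.19 to 10.7 TPM. In bulk libraries, fewer cells that express a gene and less RNA per cell cannot be told apart.

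SR proteins carry RNA recognition motifs and a domain rich in arginine and serine, bind exonic enhancers and help to recruit the spliceosome. Many hnRNPs bind the same transcripts and often act against them by silencing exons, and they also package, export and stabilise mRNA. The level of most of these proteins is held in check by alternative splicing of their own transcripts, which brings in a premature stop codon and sends the RNA to nonsense-mediated decay. Several of the genes, among them SRSF1, PTBP1, HNRNPA1 and HNRNPA2B1, are known to be activated by c-Myc, the protein whose stability the study examined under USP16 knockdown.

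Promoter sequence is shown for 4 members. HNRNPDL had the lowest mean change of all members. HNRNPH2 shares with HNRNPDL the hexamer CACGTG, the E-box to which c-Myc binds with its partner Max. SRSF1 and SRSF9 are related SR genes whose ratio, as deposited, had the largest shift shared by both hairpins. The sequences come from RefSeq on GRCh38.p14, run 5′ to 3′ on the strand of the gene and are shown only where they also lie before the start of the gene in GENCODE, which left 250 bases for HNRNPDL and HNRNPH2, 150 for SRSF1 and 205 for SRSF9, and capitals mark CACGTG and the CCAAT box on either strand (CCAAT or ATTGG). The window shown for HNRNPDL, 1 of its 2, is chr4:82430463-82430712 on the reverse strand, that of HNRNPH2 chrX:101407972-101408221 on the forward strand, that of SRSF1 chr17:58007347-58007496 on the reverse strand and that of SRSF9 chr12:120469794-120469998 on the reverse strand.
HNRNPDL: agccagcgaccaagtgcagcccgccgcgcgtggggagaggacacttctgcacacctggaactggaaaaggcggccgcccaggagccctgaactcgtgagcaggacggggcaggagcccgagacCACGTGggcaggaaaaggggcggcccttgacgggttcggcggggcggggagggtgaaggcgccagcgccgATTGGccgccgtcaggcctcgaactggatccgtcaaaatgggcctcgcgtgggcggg
HNRNPH2: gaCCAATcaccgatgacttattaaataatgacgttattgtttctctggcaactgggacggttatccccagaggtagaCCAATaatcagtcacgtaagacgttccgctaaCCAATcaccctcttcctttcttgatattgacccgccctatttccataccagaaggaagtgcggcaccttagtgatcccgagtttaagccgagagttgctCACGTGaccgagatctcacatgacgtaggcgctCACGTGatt
SRSF1: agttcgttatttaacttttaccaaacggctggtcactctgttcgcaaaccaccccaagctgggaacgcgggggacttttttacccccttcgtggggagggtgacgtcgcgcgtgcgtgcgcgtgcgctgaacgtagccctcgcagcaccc
SRSF9: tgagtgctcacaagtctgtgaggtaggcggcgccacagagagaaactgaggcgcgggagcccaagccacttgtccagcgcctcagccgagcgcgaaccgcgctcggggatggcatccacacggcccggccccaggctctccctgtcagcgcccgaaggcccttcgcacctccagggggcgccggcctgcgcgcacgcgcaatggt
The window shown for HNRNPDL held 1 E-box and 1 CCAAT box, that of HNRNPH2 held 2 E-boxes and 3 CCAAT boxes, and the bases shown for SRSF1 and SRSF9 held neither motif.

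These genes were among the abundant transcripts of PC3 cells. HNRNPA1, which binds UAG-containing silencers, led them at 1078 TPM in shCON and had rank 147 among all genes. HNRNPC, which binds uridine tracts, followed at 728 TPM, and HNRNPA2B1, an RNA packaging and transport protein, at 713 TPM. SRSF5, an enhancer-binding SR protein, was the most abundant of its class at 526 TPM, ahead of SRSF9 at 399 TPM and SRSF2 at 343 TPM. SRRM2, a scaffold of the spliceosome and of nuclear speckles, led the SR-related genes at 165 TPM, with RBM39 at 123 TPM and TRA2B at 115 TPM. At the other end stood PTBP2, the neuronal relative of PTBP1, at 2.02 TPM, and HNRNPA1L2, a retrotransposed copy of HNRNPA1, at 3.1 TPM. SRSF12 and HNRNPCL1 to HNRNPCL4 were listed at 0 in all 3 libraries. The other 41 members had an average of 1 TPM or more across the 3 libraries, the minimum set for all comparisons, which 13637 genes passed.

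**Figure D1:**
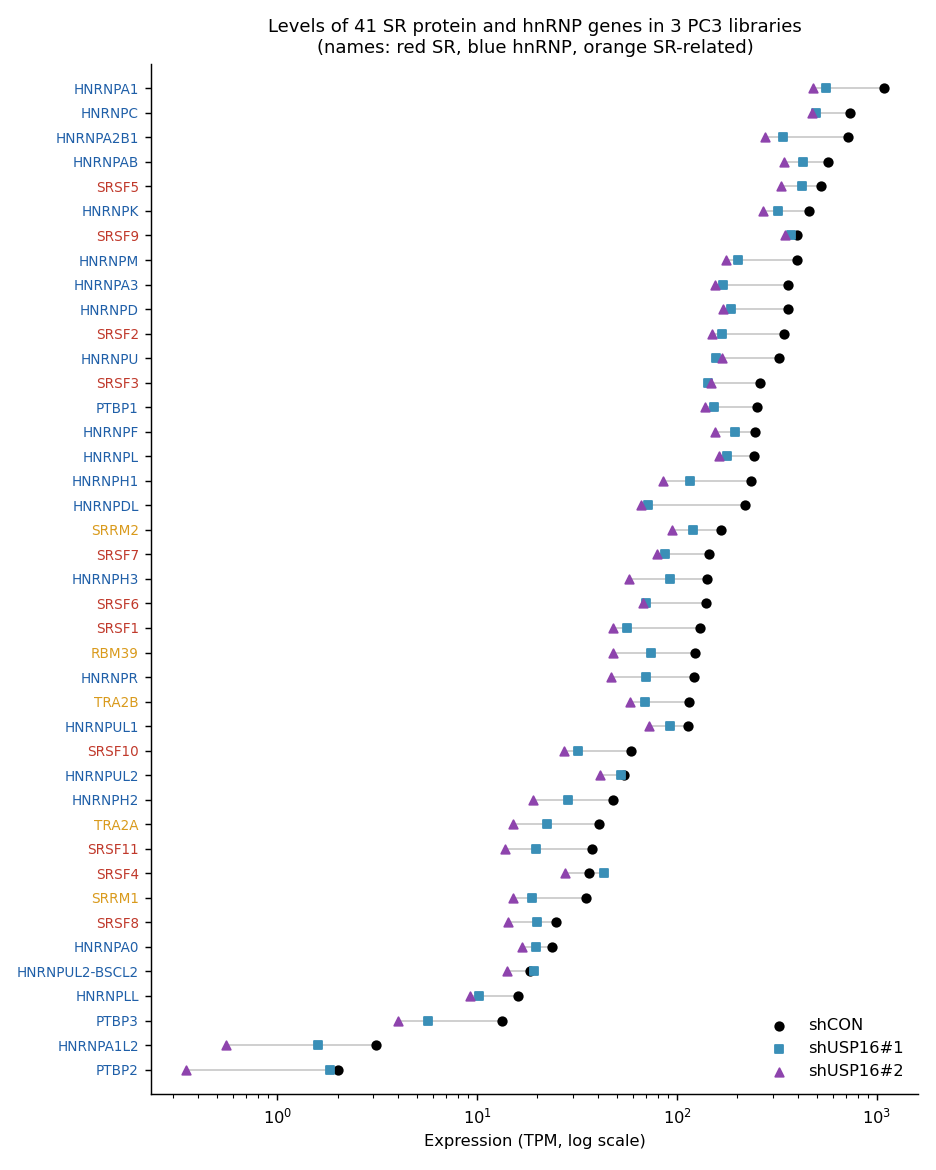
TPM on a log axis of the 41 members that passed the minimum, ordered by their level in shCON, with 1 point per library (circle shCON, square shUSP16#1, triangle shUSP16#2). In 39 of the 41 both hairpin points lie left of the control point, SRSF4 and HNRNPUL2-BSCL2 being the exceptions, and the levels span from 0.35 TPM for PTBP2 under shUSP16#2 to 1078 TPM for HNRNPA1 in shCON.

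The members were lower as a body under both hairpins. Summed over all 46, they held 9305 TPM in shCON against 5696 TPM with shUSP16#1 and 4875 TPM with shUSP16#2, which left 61.2% and 52.4% of the control sum. The SR genes retained 68.3% and 59.6% of their control sum, the hnRNP genes 58.8% and 50.4%, and the SR-related genes 63.7% and 48%. Changes of single genes were computed as log2(TPM + 1) of a hairpin library minus shCON, which makes the change of weakly expressed genes look smaller than it is. The median log2 change of the members was -0.72 under shUSP16#1 and -1.03 under shUSP16#2, where all tested genes had medians of -0.17 and -0.37. Relative to the median of all genes, the members' medians were -0.54 and -0.67. By class, the medians were -0.86 and -0.85 for the SR genes and -0.66 and -1.08 for the hnRNP genes. For the SR-related genes they were -0.74 and -1.16. Under shUSP16#1 the order of the SR and hnRNP genes was thus opposite to that of their sums.

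Of the 41 members, 39 were lower under both hairpins, 95.1%, where 57.2% of all tested genes were. At least 2-fold lower were 8 members under shUSP16#1 (19.5%), against 5.79% of all genes, and 21 members under shUSP16#2 (51.2%), against 19.5% of all genes. Under both hairpins 7 members were at least 2-fold lower (17.1%), against 4.6% of all genes, and 26 were at least 1.5-fold lower (63.4%), against 20.8%. No member was at least 2-fold higher under both hairpins, a background of 1.14%. In 39 members the level was lower under shUSP16#2 than under shUSP16#1, against 73.4% of all genes, and HNRNPU and SRSF3 were the exceptions. The median difference between the hairpins was -0.29 in the members and -0.21 in all genes. With the median of all genes subtracted, 36 members (87.8%) were still lower under both hairpins, against 41.7% of all genes. The 5 that were not were SRSF4, SRSF9, HNRNPUL2, HNRNPUL2-BSCL2 and PTBP2. After the same subtraction only 2 members, HNRNPDL and SRSF1, stayed at least 2-fold lower under both (4.88%), against 2% of all genes.

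**Figure D2:**
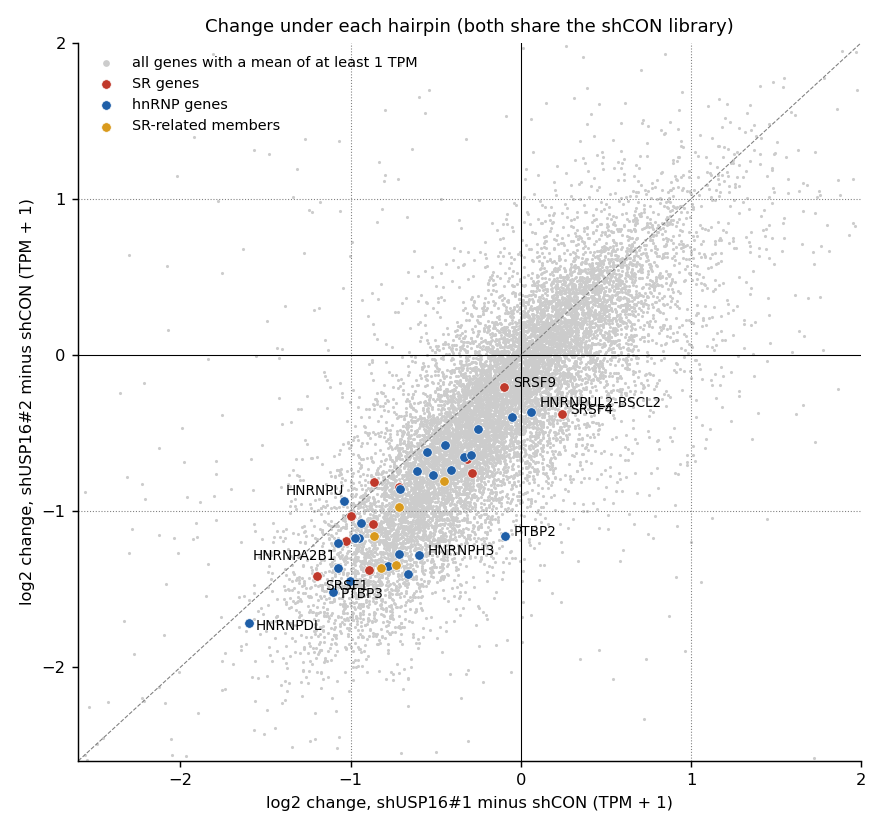
Log2 change of each gene on the log2(TPM + 1) scale under shUSP16#1 (x axis) and shUSP16#2 (y axis), both against the same shCON library, with members coloured by class over all tested genes in grey. Dotted lines mark 2-fold and the dashed line equal change. The members lie in the lower left apart from SRSF4 and HNRNPUL2-BSCL2, and HNRNPDL is the lowest under both hairpins. 239 grey points fall outside the axes.

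Values in several libraries are given below in the order shCON, shUSP16#1, shUSP16#2. Among the SR genes the levels of SRSF1 and SRSF2 were, as deposited, at least 2-fold lower under both hairpins. SRSF1, the founding SR protein and a proto-oncogene that also acts in translation and decay, was at 130 TPM in shCON against 55.9 TPM with shUSP16#1 and 47.9 TPM with shUSP16#2. Its log2 changes of -1.20 and -1.42 were the lowest of the class as deposited. SRSF2, an SR protein that stays in the nucleus and is mutated in myeloid cancers, was at 343 TPM in shCON against 168 TPM with shUSP16#1 and 150 TPM with shUSP16#2, log2 changes of -1.03 and -1.19. Both genes thus stood lower in each knockdown library than in the control library, by similar amounts. With the trend of change with GC content (described below) removed, SRSF1 was at -0.82 and -0.85 and SRSF2 at -0.87 and -1.02.

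SRSF6, an SR protein that acts as an oncogene in skin, was at 139 TPM in shCON against 69.5 TPM with shUSP16#1 and 67.6 TPM with shUSP16#2. The log2 change was -1.03 under shUSP16#2 and just short of 2-fold under shUSP16#1. SRSF3, the smallest SR protein and an adaptor for mRNA export, was at 260 TPM in shCON against 142 TPM with shUSP16#1 and 147 TPM with shUSP16#2. SRSF7, its closest relative with a zinc knuckle, was at 144 TPM, 87 TPM and 79.3 TPM in the same order. SRSF10, whose activity depends on its phosphorylation, and SRSF11, an SR-related protein, had log2 changes of -0.87 and -1.09 and of -0.89 and -1.38. In these 5 genes every knockdown value was below the control value.

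A second group of SR genes differed less from the control as deposited. SRSF5, known as a gene induced by insulin in liver cells, was at 526 TPM in shCON against 422 TPM with shUSP16#1 and 331 TPM with shUSP16#2. SRSF8, which arose as a retrotransposed copy of SRSF2, was at 24.6 TPM, 20 TPM and 14.2 TPM. SRSF9, the close relative of SRSF1, was at 399 TPM in shCON against 373 TPM with shUSP16#1 and 346 TPM with shUSP16#2, so that it became the most abundant SR gene under shUSP16#2. Its log2 changes of -0.10 and -0.21 were above the median of all genes by 0.07 and 0.16, so its direction depends on the scaling. SRSF4, a long SR protein, was at 36.1 TPM in shCON against 42.8 TPM with shUSP16#1 and 27.6 TPM with shUSP16#2, above the control in one knockdown library and below it in the other. The median log2 changes of the 11 SR genes measured were -0.86 and -0.85. With the trend of change with GC content (described below) removed, the 2 groups were no longer apart. By mean change SRSF5, at -0.44, and SRSF9, at -0.32, were then lower than SRSF7 at -0.30 and SRSF3 at -0.28. SRSF4, at -0.24, and SRSF8, at -0.23, still differed least.

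The lowest of all members was HNRNPDL, an hnRNP that binds AU-rich elements and is mutated in a limb-girdle muscular dystrophy. It was at 219 TPM in shCON against 71.5 TPM with shUSP16#1 and 65.9 TPM with shUSP16#2. Its log2 changes were -1.60 and -1.71, and its mean change stood at percentile 0.99 of all tested genes. HNRNPD, also known as AUF1 and a regulator of AU-rich mRNA decay, lies on the same arm of chromosome 4 and was at 357 TPM, 186 TPM and 169 TPM. Its gene spans 82352498 to 82374503 and that of HNRNPDL 82422564 to 82430408, both on the reverse strand of GRCh38. HNRNPAB, another gene of this type, was at 571 TPM in shCON against 428 TPM with shUSP16#1 and 342 TPM with shUSP16#2. The 3 related genes therefore differed in size of change, with log2 changes of HNRNPAB of -0.41 and -0.73. With the trend of change with GC content (described below) removed, HNRNPDL stayed the lowest at -1.37 and -1.43. HNRNPD was then at -0.57 and -0.52 and HNRNPAB at -0.55 and -0.92.

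The A and B type hnRNPs, the core of the hnRNP particle, were low under both hairpins. HNRNPA1 was at 1078 TPM in shCON against 558 TPM with shUSP16#1 and 479 TPM with shUSP16#2. HNRNPA2B1 was at 713 TPM, 337 TPM and 276 TPM, log2 changes of -1.08 and -1.36. HNRNPA3 was at 359 TPM, 170 TPM and 155 TPM, log2 changes of -1.07 and -1.21. HNRNPA0, which has no intron and binds AU-rich RNA, was at 23.7 TPM, 19.8 TPM and 16.8 TPM and differed least among them. HNRNPC, the C type partner in the particle, had log2 changes of -0.55 and -0.62. HNRNPA1L2 was at 3.1 TPM, 1.59 TPM and 0.55 TPM, but reads of this near-identical copy and of HNRNPA1 cannot be split with certainty. The 127 processed copies left out by name, 75 of them named for HNRNPA1, summed to 20.3 TPM, 15.4 TPM and 8.25 TPM, and 87 were at 0 in all libraries.

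The G-run binding hnRNPs H and F split as deposited. HNRNPH1 was at 234 TPM in shCON against 116 TPM with shUSP16#1 and 85.2 TPM with shUSP16#2. HNRNPH2, its X-linked relative, was at 47.5 TPM, 28.5 TPM and 19 TPM, and HNRNPH3, a shorter relative, at 140 TPM, 92.4 TPM and 57.3 TPM. The 3 H genes were all lower, and all 3 were lower under shUSP16#2 than under shUSP16#1. HNRNPF was at 245 TPM, 194 TPM and 155 TPM, with log2 changes of -0.34 and -0.65, less than those of each H gene. With the trend of change with GC content (described below) removed, HNRNPF was at -0.28 and -0.54. HNRNPH3, at -0.11 and -0.59, was then no longer apart from it. HNRNPH1, at -1.02 and -1.45, and HNRNPH2, at -0.44 and -0.84, stayed lower than HNRNPF.

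HNRNPM, which promotes exon skipping in mesenchymal tumour cells, was at 399 TPM in shCON against 202 TPM with shUSP16#1 and 176 TPM with shUSP16#2. HNRNPU, a scaffold attachment factor that organises chromatin, was at 321 TPM in shCON against 156 TPM with shUSP16#1 and 167 TPM with shUSP16#2, and so was slightly higher under the hairpin with the lower USP16 level. HNRNPUL1, its relative in the DNA damage response, was at 113 TPM, 92.1 TPM and 72.3 TPM. HNRNPUL2, also active at DNA breaks, was at 54.4 TPM, 52.4 TPM and 40.9 TPM. HNRNPUL2-BSCL2, a readthrough of HNRNPUL2 into the next gene, was at 18.4 TPM, 19.3 TPM and 14.1 TPM, and reads of the exons it shares with HNRNPUL2 cannot be assigned with certainty. HNRNPK, a poly(C)-binding protein, had log2 changes of -0.52 and -0.77, and HNRNPR, which acts in mRNA transport in axons, of -0.78 and -1.35. HNRNPL, which binds CA repeats, was at 243 TPM, 178 TPM and 162 TPM. Its relative HNRNPLL, which controls CD45 splicing in lymphocytes, was at 16.1 TPM, 10.2 TPM and 9.21 TPM. By mean change as deposited, HNRNPUL2 and its readthrough differed least from the control among the hnRNP genes, while HNRNPM and HNRNPU lay near 2-fold. With the trend of change with GC content (described below) removed, HNRNPUL2 was at -0.39 and its readthrough at -0.45. HNRNPC (-0.03), PTBP2 (-0.06), HNRNPA0 (0.12) and HNRNPLL (-0.13) then differed less. On that scale HNRNPM was at -1.30, HNRNPU at -0.52 and HNRNPUL1 at -0.77.

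PTBP1 silences exons through pyrimidine tracts, PTBP2 replaces it in neurons and PTBP3 is a further form found in blood and other cells. PTBP1 was at 251 TPM in shCON against 153 TPM with shUSP16#1 and 138 TPM with shUSP16#2. PTBP3 was at 13.4 TPM, 5.67 TPM and 4.01 TPM, log2 changes of -1.11 and -1.52. As deposited, it was the only form at least 2-fold lower under both hairpins. With the trend of change with GC content (described below) removed, PTBP3 was at -0.67 and -0.80. On that scale PTBP1, at -1.02 and -1.29, was the only form past 2-fold under both. PTBP2 was at 2.02 TPM, 1.83 TPM and 0.35 TPM, so that only the shUSP16#2 library was far from the control. PTBP1 is known to repress PTBP2. As deposited, PTBP2 was not above its control level while PTBP1 was below its own. PTBP2 is near the floor, and its direction under shUSP16#1 depends on the scaling. Relative to the median of all genes PTBP2 was at 0.08 and -0.79, and with the GC trend removed at 0.33 and -0.45. The link between the 2 genes was not tested.

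The 5 SR-related genes were lower under both hairpins, and none was at least 2-fold lower under both. RBM39, the target of the splicing-degrader sulfonamides, was at 123 TPM in shCON against 73.6 TPM with shUSP16#1 and 47.9 TPM with shUSP16#2. TRA2B, an activator of exons with GAA-rich enhancers, was at 115 TPM, 69.3 TPM and 57.8 TPM. TRA2A, its paralog, was at 40.4 TPM, 22.4 TPM and 15.1 TPM. SRRM1, a coactivator that bridges SR proteins and the spliceosome, was at 35 TPM, 18.8 TPM and 15.1 TPM. SRRM2 was at 165 TPM, 121 TPM and 94 TPM, the smallest change of the 5 as deposited. With the trend of change with GC content (described below) removed, the order of the 5 changed. The mean change of SRRM2 was then the largest at -0.93. SRRM1 was at -0.92, RBM39 at -0.75, TRA2A at -0.62 and TRA2B at -0.55. The median log2 changes of the 5 as deposited were -0.74 and -1.16.

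Because TPM is scaled within a library, ratios between related members do not depend on the scaling. SRSF9 exceeded SRSF1 3.08-fold in shCON, 6.67-fold under shUSP16#1 and 7.22-fold under shUSP16#2. As deposited, this was the largest shift shared by both hairpins among 16 pairs. HNRNPF and HNRNPH1 were nearly level in shCON at a ratio of 1.05, and the ratio was 1.67 and 1.82 under the hairpins. HNRNPDL to HNRNPD stood at 0.612, 0.385 and 0.391, and SRRM2 to SRRM1 at 4.72, 6.42 and 6.22. HNRNPUL1 to HNRNPU was 0.352, 0.592 and 0.432, and SRSF6 to SRSF5 was 0.265, 0.164 and 0.204. SRSF4 to SRSF5 was 0.0686, 0.101 and 0.0833, and PTBP3 to PTBP1 was 0.0531, 0.037 and 0.029. In each of these pairs both knockdown libraries lay on the same side of the control as deposited. Ratios still carry the trend of change with GC content described below. With it removed, PTBP3 (-0.67 and -0.80) was less low than PTBP1 (-1.02 and -1.29). The direction then differed between the hairpins for SRRM2, HNRNPUL1 and SRSF6 against their partners. It was kept for SRSF9, HNRNPF, HNRNPDL and SRSF4, and HNRNPDL lay further from HNRNPD than SRSF9 did from SRSF1. The ratio of HNRNPA3 to HNRNPA1 hardly moved, at 0.333, 0.304 and 0.324, nor did that of SRSF7 to SRSF3, at 0.553, 0.612 and 0.538. PTBP2 to PTBP1 was 0.00803, 0.0119 and 0.00253, with the hairpins on opposite sides, and it rests on a gene near 1 TPM. TRA2A to TRA2B was 0.353, 0.324 and 0.261.

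**Figure D3:**
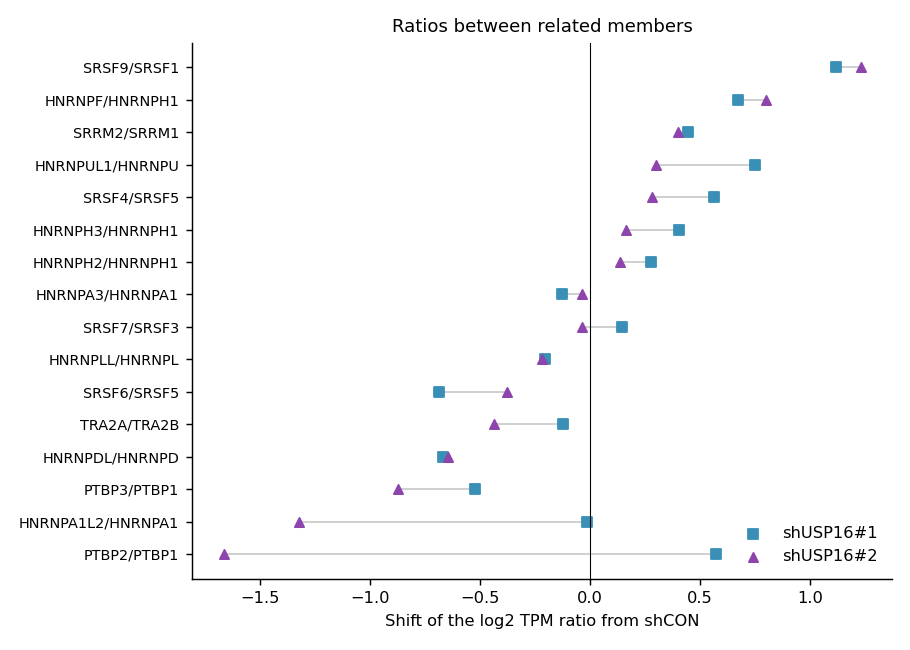
Shift of the log2 TPM ratio of 16 pairs of related members from its value in shCON, with squares for shUSP16#1 and triangles for shUSP16#2. SRSF9/SRSF1 and HNRNPF/HNRNPH1 lie to the right under both hairpins, HNRNPDL/HNRNPD and PTBP3/PTBP1 to the left, and PTBP2/PTBP1 on opposite sides.

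The order of the members by level was largely kept. Across the 41 members the rank correlation of the level in shCON with that under each hairpin was 0.98 and 0.98, a description over genes of libraries made alike. HNRNPA1 and HNRNPC remained the highest members in all 3 libraries, whereas HNRNPDL went from rank 18 in shCON to ranks 23 and 22 and SRSF9 from rank 7 to ranks 5 and 3.

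The changes moved with the GC content of the transcripts. The longest coding transcript of the members had a median GC content of 42.6%, with a range from 34.7% to 59.4%, against 49.5% in all tested genes. Among the members the rank correlation of the change with GC content was 0.40 under shUSP16#1 and 0.44 under shUSP16#2 (n = 41 genes), and among all 13296 genes with a GC value it was 0.54 and 0.64. The 20 members poorer in GC had a median mean change of -0.99 and the other 21 of -0.63. After removal of the trend of all genes with GC content, the members' median changes were -0.45 and -0.64, where those of all genes were -0.18 and -0.37. By this measure 37 members were lower under both hairpins, 90.2%, against 61.8% of the 13296 genes. On this scale 4 members (9.76%), HNRNPDL, HNRNPH1, HNRNPM and PTBP1, were at least 2-fold lower with each hairpin, against 1.98% of those genes. PTBP1, with the highest GC content of all members at 59.4%, had changes of -1.02 and -1.29 with the trend removed and of -0.71 and -0.86 as deposited. HNRNPC went the other way, from -0.55 and -0.62 to -0.10 and 0.04. HNRNPA0 was above 0 under both hairpins with the trend removed, at 0.15 and 0.08. The part of GC content in the lower levels was not tested.

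**Figure D4:**
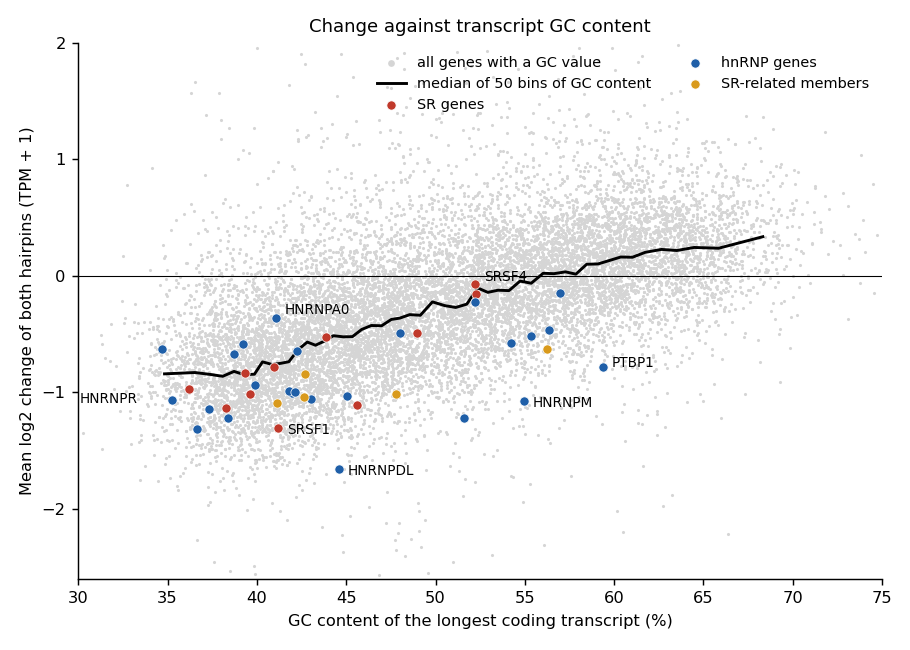
Mean log2 change of both hairpins against the GC content of the longest coding transcript, with members coloured by class over all genes with a GC value in grey and the black line as the median of 50 bins of GC content. HNRNPDL, HNRNPM, HNRNPH1 and PTBP1 lie far below the line, while HNRNPA0 lies above it. 125 grey points fall outside the axes.

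Transcript models annotated as targets of nonsense-mediated decay are frequent in these genes. In GENCODE release 29 such a model exists for 31 of the 41 members (75.6%) and for all 11 SR genes measured, against 44.1% of 11493 coding genes tested. RBM39 has 15 such models and HNRNPU 9. The members also have more transcript models of any type, a median of 11 against 8 in the coding genes. The shares were not adjusted for this number. Models with a retained intron exist for 28 members (68.3%), against 58.6% of coding genes. The 31 members with a decay model had a median change of -0.78 with shUSP16#1 and -0.97 with shUSP16#2, and the 10 without one of -0.51 and -1.18, so the order of the groups differed between the hairpins. The deposited values are per gene and do not separate coding from decay-prone transcripts, so a shift between them was not tested.

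The promoter windows, the 250 bases before each RefSeq start, were searched in full on both strands for short motifs, also where fewer bases are shown, and 37 of the 41 members had a window. A gene with several starts counted once if any of its windows held the motif. CACGTG was found in 6 members (16.2%), HNRNPA3, HNRNPD, HNRNPDL, HNRNPH2, HNRNPH3 and HNRNPM, against 11.3% of 9522 tested genes and 7.73% of all 27305 genes with a window. All 6 are hnRNP genes. As deposited, their median mean change was -1.04, with a range from -1.66 to -0.94. That of the 31 members without the motif was -0.67, with a range from -1.31 to -0.07. Over all tested genes the medians were -0.32 with the motif and -0.30 without it. With the GC trend removed, HNRNPDL was at -1.40 and HNRNPM at -1.30. HNRNPH2 was then at -0.64, HNRNPA3 at -0.59, HNRNPD at -0.54 and HNRNPH3 at -0.35, where the median of the 41 members was -0.55. A difference by motif was not tested. SRSF1 and PTBP1 had no CACGTG in their windows, which says only that these letters are not in the bases searched.
The CCAAT box was found in 21 members (56.8%), against 41.5% of tested genes and 37% of all. It does not overlap CACGTG. The GC box GGGCGG was found in 26 members (70.3%), against 75.9% and 46.2%. The ETS motif CCGGAAG was found in 5 members (13.5%), against 19.6% and 10.2%, and TATAAA in 6 (16.2%), against 7.72% and 13%. The NRF1 motif GCGCATGCG was found in HNRNPH1, SRSF7 and SRSF10, 8.11% of members, against 3.98% and 2.02%.

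MYC itself was at 238 TPM in shCON against 209 TPM with shUSP16#1 and 173 TPM with shUSP16#2. Its log2 changes of -0.19 and -0.46 were smaller than the median of the members in each library. They lay near the medians of all tested genes, -0.17 and -0.37. By qRT-PCR the paper found no effect of USP16 knockdown on c-Myc mRNA.

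Most other genes of the same pathways were also lower under both hairpins. Their counts below are as deposited and stand beside 57.2% of all genes lower and 4.6% at least 2-fold lower under both. Of 14 hnRNP proteins that go by other names, 13 passed the minimum, 11 were lower and 2 higher under both hairpins, and the median log2 changes were -0.44 and -0.59. At least 2-fold lower under both were 3. MATR3, a nuclear matrix protein, was at 62.4 TPM, 27.5 TPM and 15.5 TPM in shCON, shUSP16#1 and shUSP16#2. RBMX, which is hnRNP G, was at 165 TPM, 69.7 TPM and 58.3 TPM, and SYNCRIP, which is hnRNP Q, at 62.4 TPM, 29.1 TPM and 21 TPM. The 2 higher genes were RALY, a relative of HNRNPC, at 151 TPM, 160 TPM and 171 TPM, and PCBP4, a poly(C)-binding protein, at 25.8 TPM, 36.8 TPM and 36.3 TPM.

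The kinases and import receptors that act on SR proteins and hnRNPs had median log2 changes of -0.60 and -1.12 over 11 of 12 genes, with 10 lower and 1 higher under both hairpins. TNPO1, transportin 1, which carries HNRNPA1 into the nucleus, was at 43.5 TPM, 14.6 TPM and 7.27 TPM, and it alone was at least 2-fold lower under both. CLK1, a kinase of the SR domain, was at 22.5 TPM, 11 TPM and 6.99 TPM, and DYRK1A, a nuclear speckle kinase, at 10.3 TPM, 5.66 TPM and 3.52 TPM. CLK2 was at 15 TPM, 17.5 TPM and 16.3 TPM and CLK3 at 58.1 TPM, 50.8 TPM and 52.2 TPM, so the CLK family did not move as one.

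Among the SR-related splicing factors outside the members, 21 of 23 passed the minimum, with median log2 changes of -0.76 and -1.21. At least 2-fold lower under both hairpins were 5, RBM25, PPIG, SON, SREK1 and SCAF11, and 18 were lower and 2 higher. RBM25, a splice site regulator, was at 74.5 TPM, 25.9 TPM and 14.6 TPM. PPIG, a cyclophilin with an SR domain, was at 25.3 TPM, 10.5 TPM and 5.45 TPM, and SON, a nuclear speckle scaffold, at 128 TPM, 50.4 TPM and 41.8 TPM. The 2 higher genes were CLASRP, which binds CLK kinases, at 15.5 TPM, 16.3 TPM and 20.6 TPM, and SCAF1 at 51.1 TPM, 53.9 TPM and 52.4 TPM. Against the SR genes themselves, the median of this list was higher under shUSP16#1, -0.76 against -0.86, and lower under shUSP16#2, -1.21 against -0.85.

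The nonsense-mediated decay and exon junction factors had median log2 changes of -0.45 and -0.78 over 16 genes, with 14 lower under both hairpins and none higher under both. SMG1, the kinase that phosphorylates UPF1, was at 10.4 TPM, 3.47 TPM and 2.46 TPM and alone was at least 2-fold lower under both. UPF3B, which links the junction complex to UPF2, was at 8.8 TPM, 4.96 TPM and 2.82 TPM, and RBM8A, the junction core protein Y14, at 466 TPM, 267 TPM and 226 TPM. SMG5 was at 78.6 TPM, 72.2 TPM and 61.8 TPM and RNPS1 at 171 TPM, 151 TPM and 131 TPM. The other 2 genes, SMG6 and SMG8, lay on opposite sides of the control under the hairpins.

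The other sequence-specific splicing regulators had median log2 changes of -0.55 and -0.87 over 19 of 32 genes, with 16 lower under both hairpins and none higher under both. MBNL1, the muscleblind protein, was at 33.1 TPM, 12.4 TPM and 8.69 TPM. QKI was at 46.4 TPM, 21.8 TPM and 13.5 TPM and SFPQ, a paraspeckle protein, at 182 TPM, 81.3 TPM and 72.8 TPM, and these 3 were at least 2-fold lower under both. NONO, the partner of SFPQ, was at 232 TPM, 178 TPM and 152 TPM, and ESRP2, an epithelial regulator, at 19.1 TPM, 18.9 TPM and 17.6 TPM. All 5 lists had medians below those of all genes in both comparisons. With the GC trend removed, none of the 5 listed genes that were above the control under both hairpins (RALY, PCBP4, CLK2, CLASRP and SCAF1) remained so, while RBM4, at 0.03 and -0.14 as deposited, lay above it at 0.40 and 0.42.

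**Figure D5:**
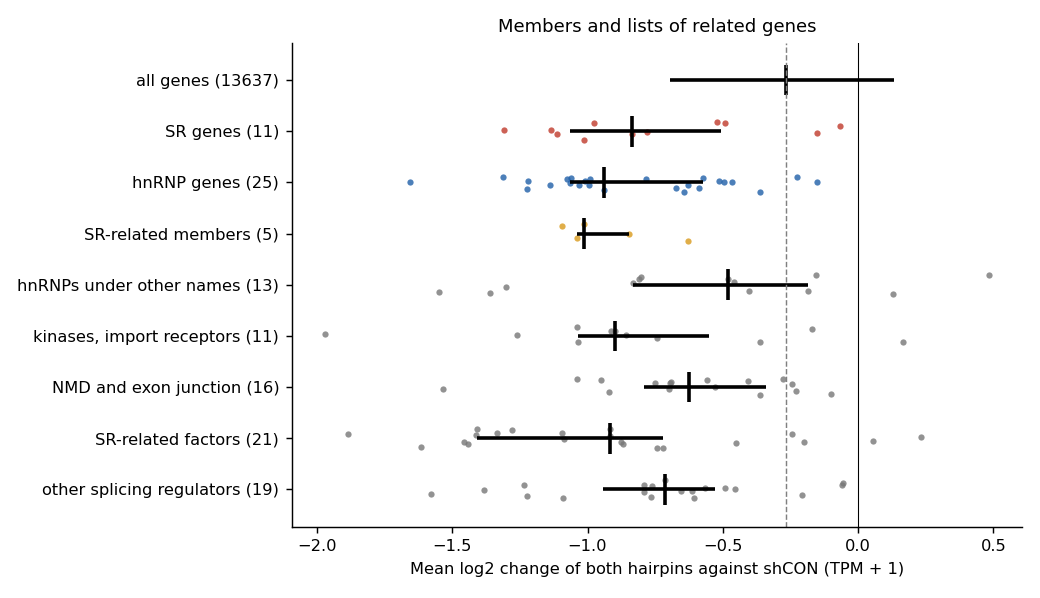
Mean log2 change of both hairpins on the log2(TPM + 1) scale for each member (colours) and each gene of the lists (grey), with the median as a vertical bar, the quartiles as a horizontal line and the number of genes in parentheses. The dashed line is the median over the tested genes, and the median of every group of members and of every list lies left of it.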

How the data were processed

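RNA was extracted with TRIzol from PC3 cells carrying shCON, shUSP16#1 or shUSP16#2 (1 library each), prepared with the Illumina TruSeq RNA kit and sequenced by Majorbio. The authors deposited TPM values with 2 decimals, made on the Majorbio cloud platform. The submitters' processing notes name CASAVA, HISAT2 and hg19, while the quantification tool and annotation are not given in the sources used here. Of 60930 genes, 1211 repeating a name were left out, keeping the entry with the highest mean, and 3 columns that repeat others were not used. Changes were log2(TPM + 1) under a hairpin minus shCON over the 13637 genes averaging 1 TPM or more, and called meant at least 2-fold. Place, GC content and transcript models came from GENCODE release 29 (57308 gene IDs matched), and promoters from RefSeq. To remove the GC trend, genes were split into 50 bins by GC content, the median change of each bin was taken off and the overall median was restored.

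The members and lists were chosen with earlier results of these data known. Values were given for the 3 most abundant members of each class, the 10 lowest and up to 5 highest under both hairpins by the smaller change, members of opposite direction and related pairs, and in each list the 3 lowest and 2 highest genes averaging 5 TPM or more and of equal direction. HNRNPA0, HNRNPAB, HNRNPK, HNRNPR, HNRNPUL2, HNRNPUL2-BSCL2, SRSF8, SRSF10 and SRSF11, and the list genes SREK1, SCAF11, SMG6, SMG8 and RBM4, are not named by the rule and were added once their values had been seen. Alternatives were a pseudocount of 0.1, centring on all genes, other minimums, a 1.5-fold threshold, each hairpin alone, rescaling without short non-coding genes, removal of the GC trend and a coding background. The scripts were tested on simulated data. Python 3.11.15, pandas 2.3.3, numpy 2.4.6 and matplotlib 3.10.9 were used. Some marker genes are not reported here.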

Additional observations from a re-analysis of the deposited data

Results flagged for a closer look

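Among the 41 members measured, 2 lay on opposite sides of the control under the hairpins. The log2 change of SRSF4 was 0.24 with shUSP16#1 and -0.38 with shUSP16#2, and that of HNRNPUL2-BSCL2 was 0.06 and -0.36. With 1 library per condition these differences between the hairpins were not tested. HNRNPUL2, which shares exons with HNRNPUL2-BSCL2, had log2 changes of -0.05 and -0.40.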

How the results depend on the processing

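No paired analysis was possible because there was 1 library per condition, and no value has an error. No median and no count changed direction under any alternative run. The count of 7 members past 2-fold lower under both hairpins became 2 when changes were centred on the median of all genes (HNRNPDL and SRSF1), 4 with the GC trend removed and 26 at a 1.5-fold threshold, beside 2%, 1.98% and 20.8% of all genes, and ranged from 8 to 21 with a single hairpin. The members' median change moved from -0.72 to -0.45 under shUSP16#1 with the GC trend removed, and from -1.03 to -0.67 (centred) and -0.64 (GC trend removed) under shUSP16#2. For the mean of both hairpins it moved from -0.94 to -0.67 (centred) and -0.55 (GC trend removed). The SR genes' median of -0.84 became -0.57 (centred), -0.81 with no minimum, -0.81 rescaled without short non-coding genes and -0.40 with the GC trend removed, with -0.86 to -0.85 for single hairpins. The hnRNP genes' median of -0.94 became -0.59 with the GC trend removed. Centring gave -0.21 for the hnRNPs under other names (-0.59 to -0.44 for single hairpins), -0.36 for the decay and junction factors and -0.44 for the other splicing regulators. Movement was judged against the spread between the hairpins, which is not replicate error. The mean change of a member was above 0 for HNRNPA0 with the GC trend removed, for SRSF9, SRSF4, HNRNPUL2 and HNRNPUL2-BSCL2 when centred, and for SRSF4 and HNRNPUL2-BSCL2 under shUSP16#1 alone. The depth of the libraries is unknown, which limits PTBP2 and HNRNPA1L2, the members near 1 TPM, most.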

Other observations

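Of the 127 processed copies of members, 5 reached 1 TPM in a library. HNRNPCP1 was at 7.26 TPM in shCON against 5.24 TPM with shUSP16#1 and 3.35 TPM with shUSP16#2, and HNRNPA1P48 at 4.63 TPM, 2.01 TPM and 1.64 TPM. HNRNPA3P12 was at 3.3 TPM, 2.23 TPM and 1.03 TPM. HNRNPA1P10 was at 1.27 TPM, 2.15 TPM and 0.47 TPM, and HNRNPA1P16 at 1.08 TPM, 1.34 TPM and 0.68 TPM. Reads of such copies and of their parent genes cannot be split with certainty.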
